A study of Homo sapiens with 12 samples.

Results

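The genes described here are 42 interferon-stimulated genes, a set of genes known to be switched on by interferons, followed through an experiment on SZ95 sebocytes. Members were fixed by symbol, and a member counted as measured when a row of the array table carried its symbol and no other. By this rule 40 of the 42 were measured, out of 18417 genes with a single symbol in the whole table. STAT2 had no such row, and GBP1 was read only by a probe set that also matched GBP1P1 and GBP3. Each measured member was read by 1 probe set.

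SZ95 is a human sebocyte line, cultured in Sebomed medium. The 12 arrays held 3 of each of 4 groups. These were cells lipofected with siRNA against OLR1 and given 25 µg/ml UV-oxidised PAPC (UV-PAPC) 24 h later, cells with OLR1 siRNA left untreated, cells with scramble siRNA given UV-PAPC, and cells with scramble siRNA left untreated. OLR1 is the gene for LOX-1, a receptor for oxidised lipoproteins, and PAPC is a membrane phospholipid with an arachidonoyl chain, which oxidises readily. All groups had been transfected, 1 cell line was used, and neither unoxidised PAPC nor vehicle was among the groups analysed here, so what oxidation did and what the lipid or its carrier did cannot be told apart. Untransfected cells and cells with another OLR1 siRNA were not among these groups either. What transfection did to these genes therefore cannot be read. Loss of OLR1 and other effects of its siRNA cannot be told apart. The exposure time is not given in the labels. Nor do they say whether a group's 3 arrays came from separate cultures, so the p-values below cover only the variation among these samples, and part or all of it may be technical.

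Interferons of types I and III bind receptors whose kinases activate a transcription factor complex that holds STAT2 and IRF9 and binds interferon-stimulated response elements (ISRE) in the promoters of target genes. Interferon gamma acts on gamma-activated sites (GAS), and IRF1, itself induced in this way, binds ISRE-like sequences. The products detect viral RNA, stop its translation, degrade it or label proteins with ISG15, and many cells, epithelial cells of the skin included, make some of them at a low level without infection.

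The values are log2 signals, so a difference of 1 is a doubling, and a difference is called when its limma p, adjusted by Benjamini-Hochberg over the 18417 genes, is under 0.05. Array medians lay between 5.73 and 5.83, and 21 of the 40 measured members had a mean signal above 6.35, the median over genes. OLR1 had signals of 4.33 to 4.47 with OLR1 siRNA and UV-PAPC, 4.38 to 4.66 with OLR1 siRNA alone, 5.49 to 6.19 with scramble siRNA and UV-PAPC, and 5.35 to 6.19 with scramble siRNA alone. It was therefore lower in all 6 OLR1 siRNA arrays than in all 6 scramble arrays, with log2 differences of -1.40 in UV-PAPC cells and -1.19 in untreated cells (limma adjusted p = 0.000162 and 0.000484). The 12 measured epithelial and sebocyte markers had a mean signal of 9.74 to 9.89 in every array, and the 11 leukocyte markers one of 4.80 to 4.96. With UV-PAPC, 0 of the 11 leukocyte, 0 of 5 endothelial, 0 of 7 fibroblast, 0 of 3 melanocyte and 0 of 3 plasmacytoid dendritic cell markers passed the threshold under either siRNA. With UV-PAPC the epithelial and sebocyte list had 1 rise and 2 falls under each siRNA (PLIN2 higher and PPARG lower in both, MUC1 lower with OLR1 siRNA, CDH1 lower with scramble siRNA). Among all genes 3.46% rose and 3.25% fell with UV-PAPC in OLR1 siRNA cells, and 2.67% rose and 4.64% fell in scramble cells. The MUC1 call was lost without scramble untreated replicate 1, scramble UV-PAPC replicate 2, any untreated OLR1 siRNA array or OLR1 siRNA UV-PAPC replicate 1 or 2 (limma adjusted p between 0.0508 and 0.139). The CDH1 call was lost without any untreated scramble array or scramble UV-PAPC replicate 1 or 3 (limma adjusted p between 0.0515 and 0.1). In such bulk RNA, fewer cells of a type and less RNA per cell cannot be told apart.

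The promoters of 7 members are printed to show the response elements through which these genes are classically driven. They were chosen with the results known and are the 250 bases before the start of the gene on its own strand, from RefSeq for GRCh38.p14, with the matches in capitals. The ISRE core was searched as GAAANNGAAA and the GAS as TTCNNNGAA, on both strands. IFIT3 (chr10:89327747-89327996, plus strand) and IFIT1 (chr10:89392373-89392622, plus strand) have 2 ISRE matches each and SAMD9 (chr7:93117980-93118229, minus strand) has 1. SAMD9L (chr7:93148386-93148635, minus strand) has none. IRF1 (chr5:132490774-132491023, minus strand) has a GAS match, printed in capitals in its line, and no ISRE match. ISG15 (chr1:1013247-1013496, plus strand) has 2 overlapping ISRE matches and IFI6 (chr1:27672193-27672442, minus strand) has 3. The first 5 fell with UV-PAPC under at least 1 siRNA, and the last 2 passed the threshold in no comparison.
IFIT3: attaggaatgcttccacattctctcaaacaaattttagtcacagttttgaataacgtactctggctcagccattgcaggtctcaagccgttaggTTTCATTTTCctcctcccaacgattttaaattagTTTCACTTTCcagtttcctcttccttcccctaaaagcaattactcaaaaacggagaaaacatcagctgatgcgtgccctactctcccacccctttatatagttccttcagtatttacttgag
IFIT1: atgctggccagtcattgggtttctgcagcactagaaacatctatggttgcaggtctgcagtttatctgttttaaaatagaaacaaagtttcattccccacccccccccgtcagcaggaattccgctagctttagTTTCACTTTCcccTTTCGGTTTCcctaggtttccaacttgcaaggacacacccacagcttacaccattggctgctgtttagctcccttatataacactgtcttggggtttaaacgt
SAMD9: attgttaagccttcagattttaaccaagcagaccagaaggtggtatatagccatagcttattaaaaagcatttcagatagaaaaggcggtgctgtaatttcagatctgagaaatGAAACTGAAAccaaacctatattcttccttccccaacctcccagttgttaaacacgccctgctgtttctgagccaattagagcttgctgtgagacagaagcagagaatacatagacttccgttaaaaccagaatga
SAMD9L: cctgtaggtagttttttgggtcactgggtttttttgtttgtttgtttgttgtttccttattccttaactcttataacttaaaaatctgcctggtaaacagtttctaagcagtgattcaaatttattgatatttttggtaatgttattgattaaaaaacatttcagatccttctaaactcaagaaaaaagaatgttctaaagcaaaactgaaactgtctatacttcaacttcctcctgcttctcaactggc
IRF1: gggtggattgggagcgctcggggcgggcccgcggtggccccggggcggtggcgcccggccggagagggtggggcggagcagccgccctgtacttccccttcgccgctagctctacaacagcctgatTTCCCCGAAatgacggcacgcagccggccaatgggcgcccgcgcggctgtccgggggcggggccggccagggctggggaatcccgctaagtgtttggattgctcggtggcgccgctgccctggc
ISG15: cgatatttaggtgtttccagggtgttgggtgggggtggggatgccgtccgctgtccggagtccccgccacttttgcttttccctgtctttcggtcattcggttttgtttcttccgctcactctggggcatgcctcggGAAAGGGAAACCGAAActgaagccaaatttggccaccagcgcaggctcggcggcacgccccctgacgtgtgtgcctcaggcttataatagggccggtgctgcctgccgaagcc
IFI6: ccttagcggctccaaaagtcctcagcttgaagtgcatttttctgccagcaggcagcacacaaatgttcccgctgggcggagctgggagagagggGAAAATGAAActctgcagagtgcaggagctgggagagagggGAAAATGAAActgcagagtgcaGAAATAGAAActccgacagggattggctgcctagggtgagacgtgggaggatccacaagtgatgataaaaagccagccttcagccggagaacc

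Such a window was found for 34 of the 42 members. IFIT2, DHX58, MX2, OAS2, OASL, IRF7, USP18 and TRIM22 had none in the table used. A gene with several windows counted as a match when any of them held the letters, and ISRE and GAS matches overlap in IFI27, MX1 and BST2. The ISRE core occurred in 22 of the 34 members (64.7%) and in 1014 of all 27305 genes with a window (3.71%), and the GAS in 11 members (32.4%) and 2208 of all genes (8.09%). Of the members that fell with UV-PAPC under at least 1 siRNA, 7 of the 12 with a window held the ISRE core (58.3%), and of the measured members that fell under neither, 14 of 20 did (70%). For the GAS the counts were 3 of 12 (25%) and 8 of 20 (40%). These are descriptions of the letters in the windows, and the differences between members were not tested.

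With UV-PAPC, IFIT genes, SAMD9, SAMD9L, RIGI, IRF1 and PARP9 were among the interferon-stimulated genes that fell, and EIF2AK2 was the 1 that rose. In cells with OLR1 siRNA, 10 of the 40 measured members fell with UV-PAPC, 1 rose (EIF2AK2) and 29 did not pass, where 3.25% of all genes fell and 3.46% rose. In cells with scramble siRNA, 11 fell, 0 rose and 29 did not pass, where 4.64% of all genes fell and 2.67% rose. At an unadjusted p under 0.05 there were 19 members with OLR1 siRNA and 15 with scramble siRNA, against 3414 and 3592 of all 18417 genes. The members' median log2 difference was -0.15 with OLR1 siRNA and -0.14 with scramble siRNA, and the median of all genes was -0.013 and -0.00196. Without regard to the threshold, the UV-PAPC and untreated arrays did not overlap for 13 members that were lower and 4 that were higher with OLR1 siRNA (12.8% and 10.9% of all genes), and for 16 that were lower and 0 that were higher with scramble siRNA (14% and 10.1% of all genes).

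The responses under the 2 siRNAs share no arrays. IFIT2, IFIT3, RIGI, SAMD9, SAMD9L, IRF1, PARP9 and OAS3 fell in both, which is 80% of the falls with OLR1 siRNA and 72.7% of those with scramble siRNA. XAF1 and CXCL11 were called with OLR1 siRNA, and IFIT1, IFIT5 and DDX60 with scramble siRNA. Across the 40 members the log2 differences of the responses had a Pearson r of 0.815, and across all genes one of 0.707. These points are genes of the same 12 arrays and are not independent. By array, the median member differed from its mean in untreated scramble cells by -0.15, -0.17 and -0.076 with OLR1 siRNA and UV-PAPC, by 0.056, 0.032 and -0.079 with OLR1 siRNA alone, and by -0.13, -0.097 and -0.17 with scramble siRNA and UV-PAPC. Each of the 6 UV-PAPC arrays thus lay below that mean, by the median member, and so did 1 untreated OLR1 siRNA array. At -0.079 that array was as low as OLR1 siRNA UV-PAPC replicate 3 at -0.076.

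**Figure D1:**
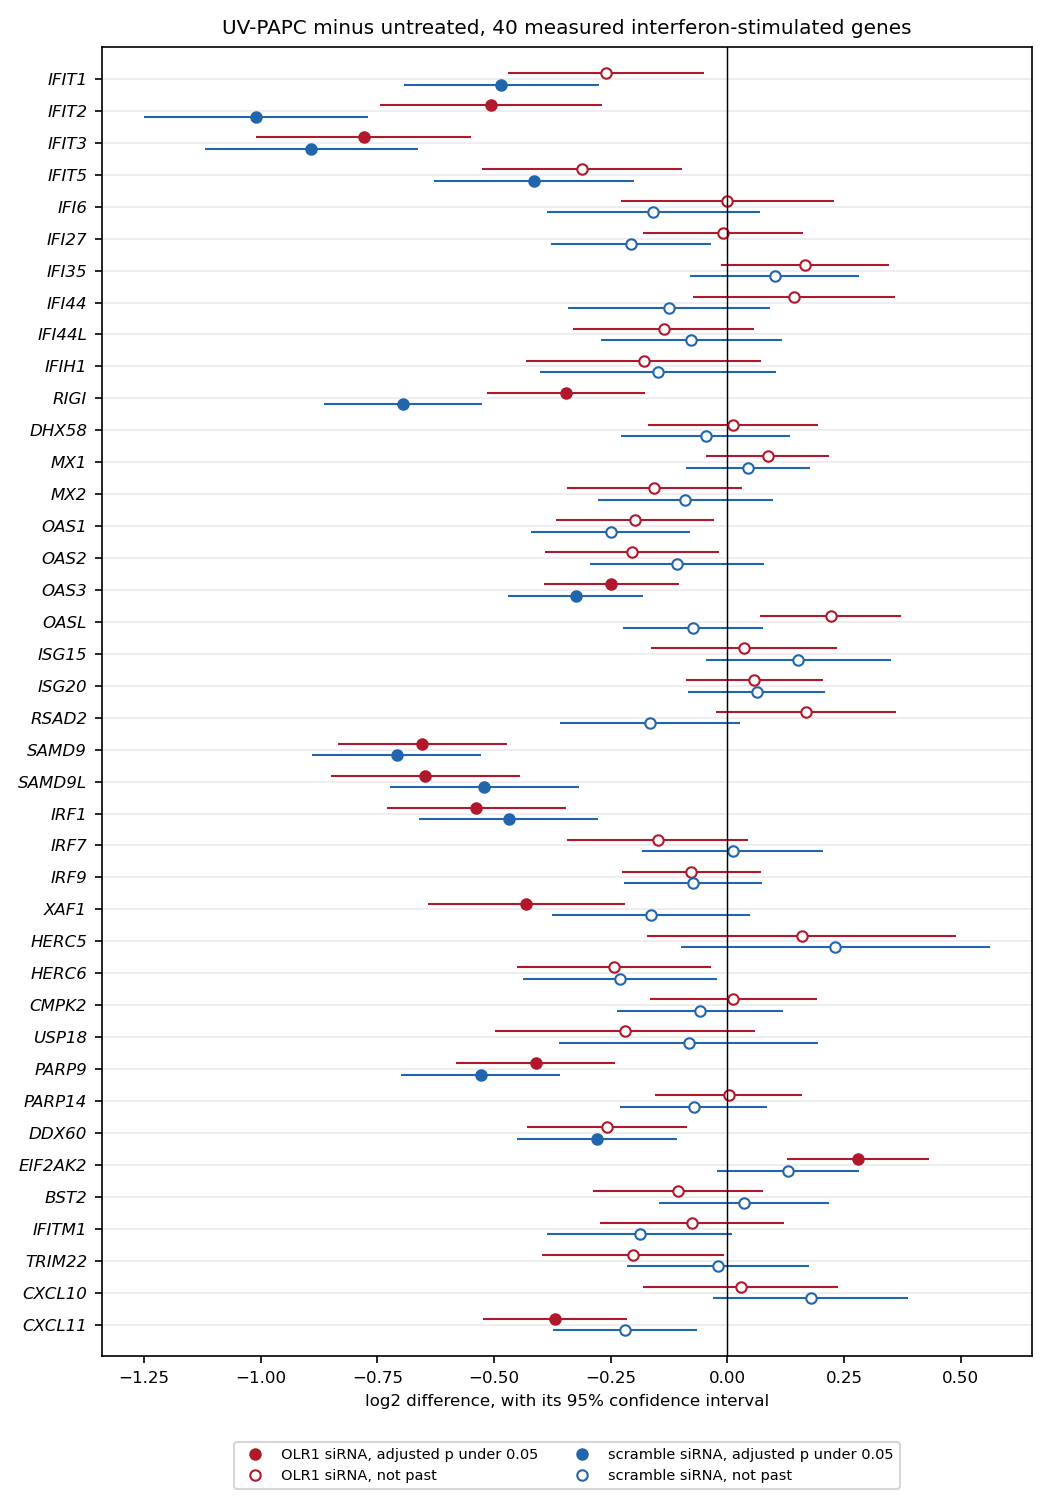
Log2 difference of UV-PAPC minus untreated cells for each of the 40 measured interferon-stimulated genes, with its 95% confidence interval from limma (3 arrays a group), in cells with OLR1 siRNA (red) and scramble siRNA (blue). Filled points have an adjusted p under 0.05: 10 falls and 1 rise with OLR1 siRNA, and 11 falls with scramble siRNA, with IFIT2 at -1.01 the lowest.

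The IFIT genes encode tetratricopeptide proteins that bind viral RNA and hinder its translation. IFIT1, IFIT2 and IFIT3 act in a shared complex. All 4 members of the family fell with scramble siRNA, and IFIT2 and IFIT3 fell with OLR1 siRNA. IFIT3 had 5.63, 5.44 and 5.36 with UV-PAPC against 6.38, 6.35 and 6.04 untreated in OLR1 siRNA cells, and 5.36, 5.52 and 5.13 with UV-PAPC against 6.16, 6.28 and 6.24 untreated in scramble cells. Every UV-PAPC array was below every untreated array, and the differences of -0.78 ± 0.108 and -0.89 ± 0.108 (SE, n = 3 a group) had limma adjusted p of 0.000247 and 6.8e-05.

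IFIT2 had 5.53, 5.59 and 5.57 with UV-PAPC against 6.10, 6.29 and 5.82 untreated in OLR1 siRNA cells. In scramble cells it had 5.50, 5.79 and 5.38 with UV-PAPC against 6.63, 6.47 and 6.60 untreated. The UV-PAPC arrays were low under both siRNAs and did not overlap the untreated ones, while untreated OLR1 siRNA cells lay between them and untreated scramble cells, with 1 array at 5.82, near the highest UV-PAPC array at 5.79. The log2 difference was -0.51 ± 0.112 with OLR1 siRNA (limma adjusted p = 0.00978) and -1.01 ± 0.112 with scramble siRNA (limma adjusted p = 3.29e-05). The call with OLR1 siRNA was lost without untreated OLR1 siRNA replicate 2 (limma adjusted p = 0.0588).

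IFIT1 had 4.28, 4.45 and 4.41 with UV-PAPC against 4.71, 4.79 and 4.41 untreated in OLR1 siRNA cells, and 4.19, 4.40 and 4.09 against 4.73, 4.74 and 4.67 in scramble cells. The groups were apart with scramble siRNA and overlapped with OLR1 siRNA, where 1 untreated array was as low as the UV-PAPC ones. IFIT1 fell with scramble siRNA (-0.485 ± 0.0985, limma adjusted p = 0.00563) and did not pass with OLR1 siRNA (-0.26, limma adjusted p = 0.147). IFIT5 had 6.51, 6.54 and 6.55 with UV-PAPC against 7.07, 6.86 and 6.61 untreated in OLR1 siRNA cells, and 6.68, 6.66 and 6.41 against 7.03, 7.05 and 6.90 in scramble cells. It fell with scramble siRNA (-0.41 ± 0.101, limma adjusted p = 0.0185) and did not pass with OLR1 siRNA (-0.31, limma adjusted p = 0.0817), although no arrays overlapped. The IFIT5 call was lost without untreated scramble replicate 1 or 2 or UV-PAPC scramble replicate 3 (limma adjusted p = 0.0705, 0.0682 and 0.0997).

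**Figure D2:**
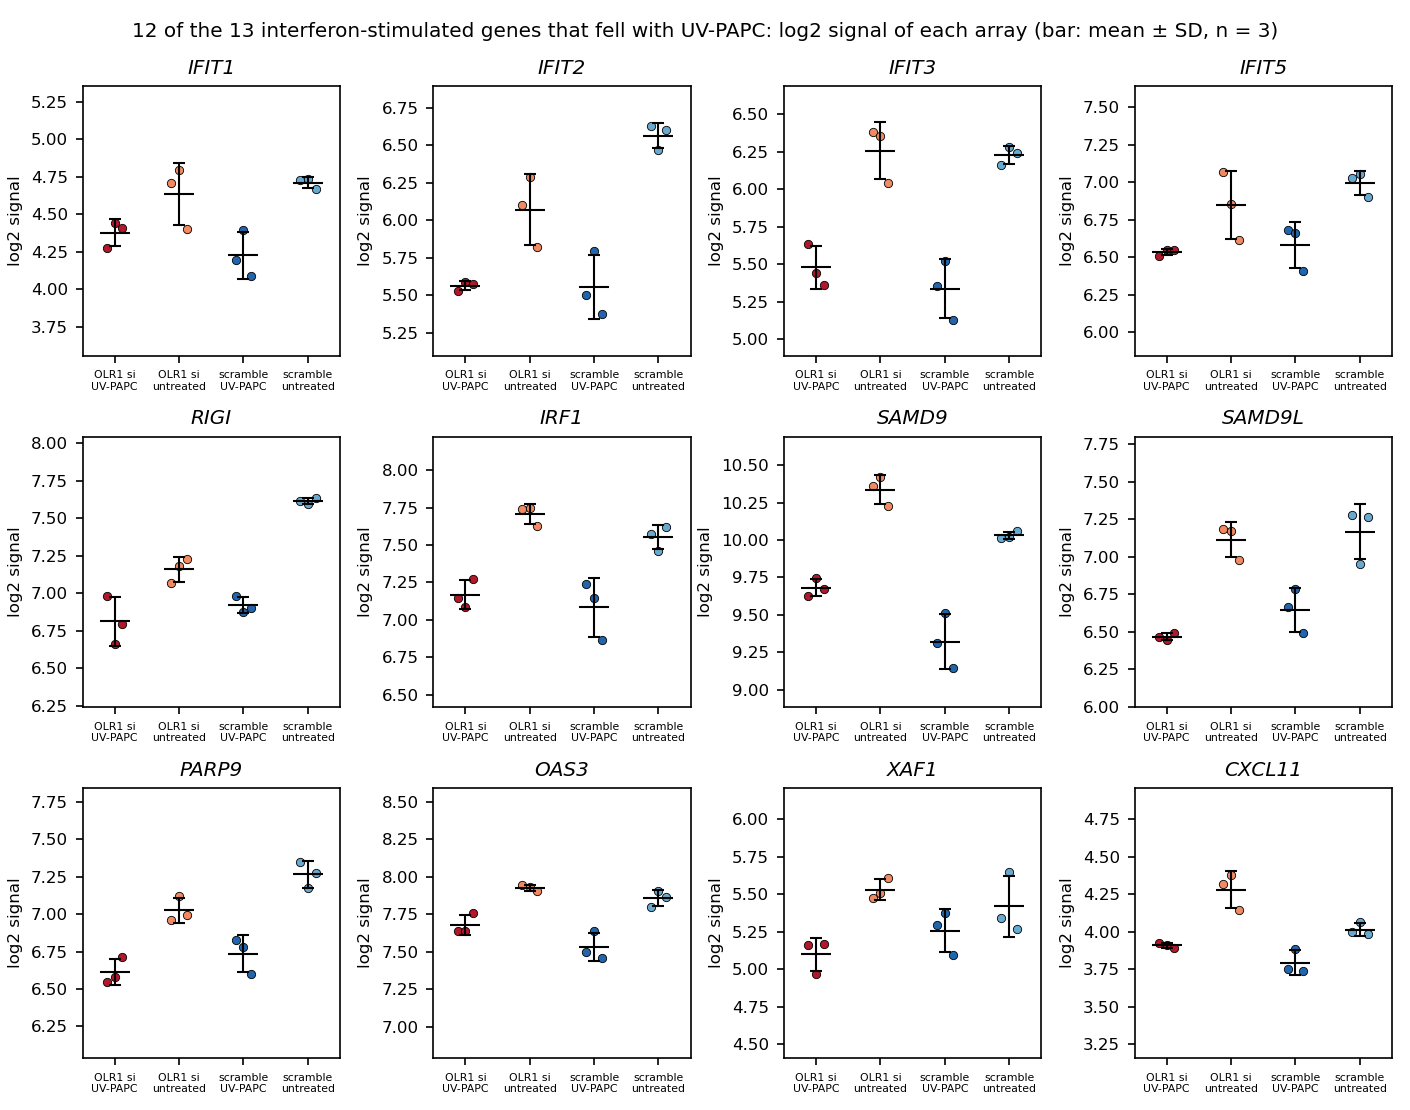
Log2 signal of each array for 12 of the 13 genes that fell with UV-PAPC under at least 1 siRNA (DDX60 is drawn with the genes that differed with OLR1 siRNA). Points are arrays and bars the mean ± SD (n = 3) of OLR1 siRNA cells with UV-PAPC and untreated and of scramble cells with UV-PAPC and untreated, with a separate vertical scale for each gene; SAMD9 with scramble siRNA lies between 9.14 and 9.51 with UV-PAPC and between 10.01 and 10.06 untreated.

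The RNA sensors did not move as a block. RIGI (RIG-I) and IFIH1 (MDA5) recognise viral RNA and signal through MAVS, DHX58 (LGP2) modulates both, DDX60 has been described as a helper of RIG-I, and EIF2AK2 (PKR) stops translation on binding double-stranded RNA. RIGI had 6.98, 6.66 and 6.80 with UV-PAPC against 7.07, 7.19 and 7.23 untreated in OLR1 siRNA cells, and 6.98, 6.88 and 6.90 against 7.62, 7.60 and 7.63 in scramble cells. Untreated scramble cells stood above the other 3 groups, and the UV-PAPC arrays lay below the untreated ones under each siRNA. The log2 difference of RIGI was -0.35 ± 0.0797 with OLR1 siRNA (limma adjusted p = 0.0132) and -0.695 ± 0.0797 with scramble siRNA (limma adjusted p = 4.26e-05). The call with OLR1 siRNA was lost without untreated OLR1 siRNA replicate 2 or 3 or UV-PAPC OLR1 siRNA replicate 2 (limma adjusted p = 0.052, 0.0586 and 0.0679).

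EIF2AK2 was the member that rose. It had 10.27, 10.12 and 10.17 with UV-PAPC against 9.87, 9.90 and 9.96 untreated in OLR1 siRNA cells, and 10.24, 10.25 and 10.05 against 10.10, 10.06 and 10.01 in scramble cells. The groups were apart with OLR1 siRNA, where untreated cells were low, and overlapped with scramble siRNA. The rise with OLR1 siRNA was 0.28 ± 0.0717 (limma adjusted p = 0.0264), and the difference with scramble siRNA was 0.13 (limma adjusted p = 0.358). The call was lost without OLR1 siRNA untreated replicate 1 or 2 or UV-PAPC replicate 1 or 3 (limma adjusted p = 0.101, 0.0825, 0.12 and 0.0594).

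DDX60 had 6.51, 6.51 and 6.55 with UV-PAPC against 6.70, 6.96 and 6.69 untreated in OLR1 siRNA cells, and 6.19, 6.22 and 6.10 against 6.45, 6.37 and 6.55 in scramble cells. The UV-PAPC arrays were the lower ones under each siRNA without overlap. It passed with scramble siRNA (-0.28 ± 0.0803, limma adjusted p = 0.0459) and not with OLR1 siRNA (-0.26, limma adjusted p = 0.0692). With single arrays left out, the call held without scramble untreated replicate 2 or OLR1 siRNA untreated replicate 2 or 3, and was lost without any 1 of the other 9 arrays (limma adjusted p between 0.0509 and 0.18). IFIH1 and DHX58 passed in no comparison; with OLR1 siRNA and with scramble siRNA their log2 differences were -0.18 and -0.15 for IFIH1 and 0.012 and -0.046 for DHX58.

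SAMD9 and SAMD9L are neighbouring paralogs on chromosome 7 that restrict poxviruses and growth. Both fell under both siRNAs. SAMD9 had 9.63, 9.75 and 9.67 with UV-PAPC against 10.36, 10.42 and 10.23 untreated in OLR1 siRNA cells, and 9.31, 9.51 and 9.14 against 10.01, 10.02 and 10.06 in scramble cells. SAMD9L had 6.47, 6.45 and 6.49 with UV-PAPC against 7.19, 7.17 and 6.98 untreated in OLR1 siRNA cells, and 6.67, 6.78 and 6.49 against 7.28, 6.95 and 7.26 in scramble cells. For both genes every UV-PAPC array lay below every untreated array of the same siRNA. With OLR1 siRNA the differences were -0.65 ± 0.0852 for SAMD9 and -0.65 ± 0.0956 for SAMD9L (limma adjusted p = 0.000149 and 0.000416), and with scramble siRNA -0.71 ± 0.0852 and -0.52 ± 0.0956 (limma adjusted p = 6.43e-05 and 0.00257).

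Among the transcription factors, IRF1 fell under both siRNAs and IRF7 and IRF9 did not pass. IRF1 had 7.15, 7.09 and 7.27 with UV-PAPC against 7.74, 7.75 and 7.63 untreated in OLR1 siRNA cells, and 7.24, 7.14 and 6.87 against 7.57, 7.46 and 7.62 in scramble cells. No arrays overlapped, and the differences were -0.54 ± 0.0903 with OLR1 siRNA and -0.47 ± 0.0903 with scramble siRNA (limma adjusted p = 0.00129 and 0.00381). IRF7, which amplifies the induction of type I interferon, differed by -0.15 with OLR1 siRNA and 0.012 with scramble siRNA. IRF9, the DNA-binding subunit of the complex that binds ISRE, differed by -0.077 with OLR1 siRNA (95% interval -0.226 to 0.0711) and -0.074 with scramble siRNA (-0.222 to 0.0746).

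PARP9, a macrodomain protein of the PARP family that pairs with the ubiquitin ligase DTX3L, fell under both siRNAs. It had 6.55, 6.58 and 6.71 with UV-PAPC against 6.96, 7.12 and 6.995 untreated in OLR1 siRNA cells, and 6.83, 6.78 and 6.60 against 7.35, 7.17 and 7.27 in scramble cells. The groups did not overlap, with differences of -0.41 ± 0.0801 and -0.53 ± 0.0801 (limma adjusted p = 0.00406 and 0.00054). Its relative PARP14 differed by 0.00236 with OLR1 siRNA and -0.073 with scramble siRNA (limma adjusted p = 0.993 and 0.677).

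The OAS proteins make the 2′-5′ oligoadenylates that activate RNase L. OAS3 was the member of that family that fell with UV-PAPC. It had 7.64, 7.64 and 7.75 with UV-PAPC against 7.94, 7.93 and 7.90 untreated in OLR1 siRNA cells, and 7.50, 7.64 and 7.46 against 7.80, 7.90 and 7.87 in scramble cells, with no overlap. The differences were -0.25 ± 0.0682 with OLR1 siRNA and -0.32 ± 0.0682 with scramble siRNA (limma adjusted p = 0.0378 and 0.00704). The call with OLR1 siRNA was lost without UV-PAPC scramble replicate 1, any of the 3 untreated OLR1 siRNA arrays, or UV-PAPC OLR1 siRNA replicate 1 or 2 (limma adjusted p between 0.0519 and 0.131). OAS1, OAS2 and OASL did not pass with UV-PAPC under either siRNA.

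Neither MX gene passed with UV-PAPC. MX1, a GTPase that blocks influenza and other viruses, had 7.26, 7.28 and 7.34 with UV-PAPC against 7.20, 7.25 and 7.18 untreated in OLR1 siRNA cells, and 7.57, 7.55 and 7.45 against 7.49, 7.50 and 7.46 in scramble cells. The UV-PAPC effect on MX1 was 0.086 with OLR1 siRNA (95% interval -0.046 to 0.218) and 0.044 with scramble siRNA (-0.0881 to 0.176). MX2 differed by -0.16 and -0.090.

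ISG15, the ubiquitin-like modifier, and HERC5, HERC6 and USP18 of its conjugation system did not pass in any comparison. ISG15 had 6.74, 6.95 and 6.77 with UV-PAPC against 6.96, 6.62 and 6.78 untreated in OLR1 siRNA cells, and 6.73, 6.96 and 6.91 against 6.69, 6.81 and 6.64 in scramble cells. The groups overlapped under both siRNAs, and the log2 differences were 0.035 and 0.15. HERC5, its main human ligase, and HERC6 differed by 0.16 and -0.24 with OLR1 siRNA and by 0.23 and -0.23 with scramble siRNA. USP18, which removes ISG15 and restrains the type I receptor, differed by -0.22 and -0.083.

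XAF1, an antagonist of the apoptosis inhibitor XIAP, and CXCL11, a ligand of CXCR3 that recruits T cells, fell with OLR1 siRNA. XAF1 had 5.16, 4.97 and 5.17 with UV-PAPC against 5.47, 5.51 and 5.61 untreated in OLR1 siRNA cells, and 5.30, 5.37 and 5.10 against 5.34, 5.65 and 5.27 in scramble cells. CXCL11 had 3.93, 3.91 and 3.89 with UV-PAPC against 4.32, 4.38 and 4.14 untreated in OLR1 siRNA cells, and 3.75, 3.89 and 3.74 against 4.00, 4.06 and 3.98 in scramble cells. CXCL11 arrays were apart under both siRNAs and XAF1 arrays with OLR1 siRNA. The differences with OLR1 siRNA were -0.43 ± 0.0995 for XAF1 and -0.37 ± 0.0725 for CXCL11 (limma adjusted p = 0.0134 and 0.00421), and with scramble siRNA -0.16 and -0.22 (limma adjusted p = 0.416 and 0.0866). The XAF1 call was lost without untreated replicate 3 or UV-PAPC replicate 2 of OLR1 siRNA (limma adjusted p = 0.0566 and 0.064). CXCL11 signals were among the dim ones, and whether the probe set was above background is not recorded in the table.

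The 22 members that passed in no comparison were IFI6, IFI27, IFI35, IFI44L, IFIH1, DHX58, MX2, OAS2, ISG15, ISG20, RSAD2, IRF7, IRF9, HERC5, HERC6, CMPK2, USP18, PARP14, BST2, IFITM1, TRIM22 and CXCL10. Their UV-PAPC differences ran from -0.24 (HERC6) to 0.17 (RSAD2) with OLR1 siRNA and from -0.23 (HERC6) to 0.23 (HERC5) with scramble siRNA, with SE between 0.069 and 0.156. They were lower with UV-PAPC in 12 and 15 of 22 cases, and the lowest limma adjusted p were 0.178 and 0.153. IFI6 and CXCL10, both classical interferon targets, differed by 3.93e-05 and 0.028 with OLR1 siRNA and by -0.16 and 0.18 with scramble siRNA. CXCL10 was dim, with signals of 3.21 to 3.64. Whether it and other dim members such as MX2, IFI44L and BST2 were above background is not recorded. Their lack of a call cannot show that they were unchanged.

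No interferon-stimulated gene passed the test of whether the UV-PAPC response differed between the siRNAs. Limma called 0 of the 40 members and 0 of all 18417 genes (0%), and at an unadjusted p under 0.05 there were 4 members and 1004 genes. The 4 were IFIT2, RIGI, OASL and RSAD2, with responses that were 0.50 (95% interval 0.164 to 0.838), 0.35 (0.11 to 0.588), 0.29 (0.0815 to 0.506) and 0.34 higher with OLR1 siRNA than with scramble siRNA. Their limma adjusted p were 0.882, 0.882, 0.882 and 0.904. For IFIT1, called with scramble siRNA alone, the difference of responses was 0.225 with an interval of -0.0711 to 0.521, and for XAF1, called with OLR1 siRNA alone, it was -0.27 (-0.567 to 0.0312). A call under 1 siRNA and not the other is therefore not a tested difference.

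The shares of interferon-stimulated genes that changed with OLR1 siRNA were near those of all genes, apart from the falls in untreated cells. In UV-PAPC cells 2 members fell with OLR1 siRNA, 3 rose and 35 did not pass, where 4.56% of all genes fell and 7.94% rose. In untreated cells 5 fell, 3 rose and 32 did not pass, where 4.42% of all genes fell and 5.29% rose. The members' median difference was 0.00692 in UV-PAPC cells and 0.019 in untreated cells. Of the markers of other cells, CD68 (0.44 and 0.39) and CDH5 (0.50 and 0.65) rose with OLR1 siRNA in UV-PAPC and untreated cells, with 1 of 11 leukocyte and 1 of 5 endothelial markers past the threshold, and the rest of those lists did not pass. Summed over their lists as mean signals, leukocyte markers ranged from 4.80 to 4.92 and from 4.83 to 4.96 in OLR1 siRNA cells with UV-PAPC and untreated, against 4.87 to 4.91 and 4.82 to 4.89 in scramble cells. The endothelial means were 5.01 to 5.06 and 5.09 to 5.14 in OLR1 siRNA cells, against 4.94 to 4.99 and 5.005 to 5.07 in scramble cells, and PTPRC (CD45) stayed between 3.12 and 3.47 in every array. Their part in the differences of the interferon-stimulated genes was not tested. The untreated OLR1 siRNA comparison uses the same untreated scramble arrays as the scramble UV-PAPC response, so a value that is high or low in those 3 arrays enters both.

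**Figure D3:**
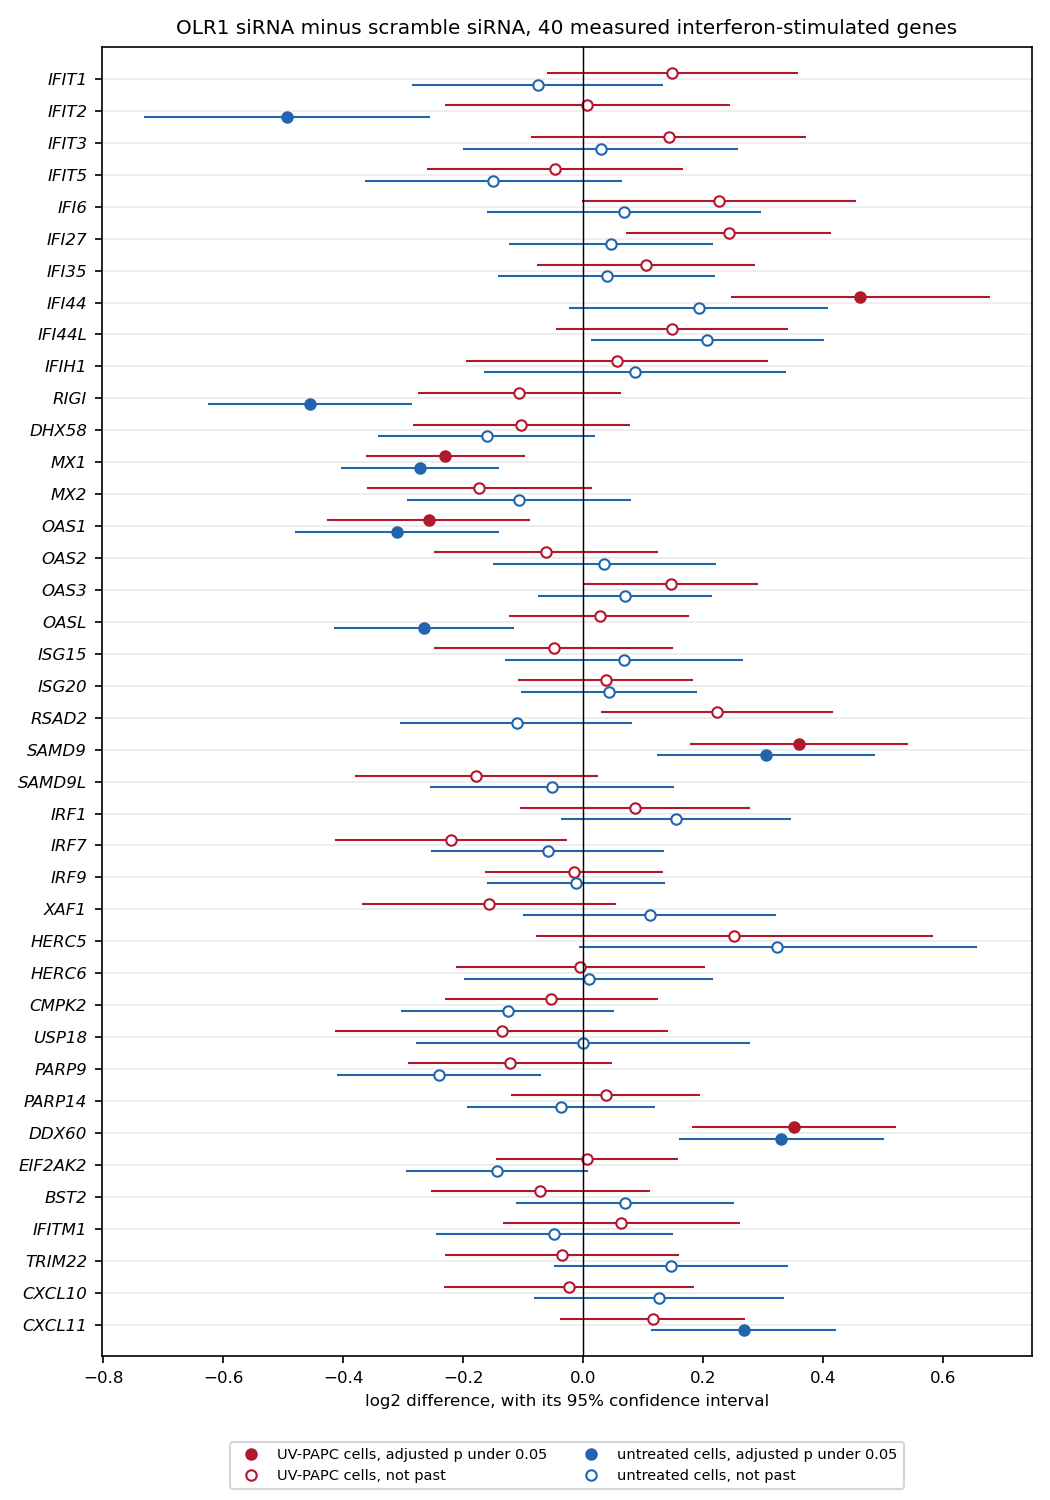
Log2 difference of OLR1 siRNA minus scramble siRNA for the 40 measured interferon-stimulated genes, with its 95% confidence interval from limma (3 arrays a group), in UV-PAPC cells (red) and untreated cells (blue). Filled points have an adjusted p under 0.05: in UV-PAPC cells MX1 and OAS1 fell and IFI44, SAMD9 and DDX60 rose, and in untreated cells IFIT2, RIGI, MX1, OAS1 and OASL fell and SAMD9, DDX60 and CXCL11 rose.

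IFIT2 and RIGI were lower with OLR1 siRNA in untreated cells. IFIT2 had 6.10, 6.29 and 5.82 with OLR1 siRNA against 6.63, 6.47 and 6.60 with scramble siRNA, and RIGI had 7.07, 7.19 and 7.23 against 7.62, 7.60 and 7.63. The arrays did not overlap for either gene, and both calls held with any 1 array left out. The differences were -0.49 ± 0.112 for IFIT2 and -0.46 ± 0.0797 for RIGI (limma adjusted p = 0.00993 and 0.00158). In UV-PAPC cells the differences were 0.00723 for IFIT2 and -0.11 for RIGI (limma adjusted p = 0.976 and 0.413), with overlapping arrays. Set side by side, with the same untreated scramble arrays in both, IFIT2 differed from untreated scramble cells by -0.49 with OLR1 siRNA alone and -1.01 with UV-PAPC alone, and RIGI by -0.46 and -0.695.

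MX1 and OAS1 were lower with OLR1 siRNA in both treatments. MX1 had 7.26, 7.28 and 7.34 with OLR1 siRNA against 7.57, 7.55 and 7.45 with scramble siRNA in UV-PAPC cells, and 7.20, 7.25 and 7.18 against 7.49, 7.50 and 7.46 in untreated cells, all apart. Its differences were -0.23 ± 0.0621 and -0.27 ± 0.0621 (limma adjusted p = 0.0241 and 0.0104). The MX1 call in UV-PAPC cells was lost without UV-PAPC replicate 1 or 2 of scramble siRNA (limma adjusted p = 0.0863 and 0.0626) or of OLR1 siRNA (0.0894 and 0.0552).

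OAS1 had 6.74, 6.58 and 6.68 with OLR1 siRNA against 6.997, 6.83 and 6.94 with scramble siRNA in UV-PAPC cells, and 6.83, 6.82 and 6.93 against 7.01, 7.25 and 7.25 in untreated cells. Every OLR1 siRNA array was the lower, with differences of -0.26 ± 0.0799 and -0.31 ± 0.0799 (limma adjusted p = 0.0462 and 0.0216). In UV-PAPC cells the OAS1 call was lost without any 1 of 9 arrays, the exceptions being scramble untreated replicates 1 and 3 and scramble UV-PAPC replicate 2 (limma adjusted p between 0.0506 and 0.146). In untreated cells it was lost without scramble replicate 2 or 3 or OLR1 siRNA replicate 1 or 2 (limma adjusted p = 0.1, 0.0957, 0.0733 and 0.0823). OASL, an OAS relative without synthetase activity that binds RIG-I, had 6.14, 6.11 and 6.12 with OLR1 siRNA against 6.31, 6.34 and 6.53 with scramble siRNA in untreated cells. The OASL difference of -0.27 ± 0.0706 (limma adjusted p = 0.0252) was lost without scramble untreated replicate 3 (limma adjusted p = 0.125) or any 1 of the 3 untreated OLR1 siRNA arrays (0.0585 to 0.0811), and in UV-PAPC cells it was 0.027.

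**Figure D4:**
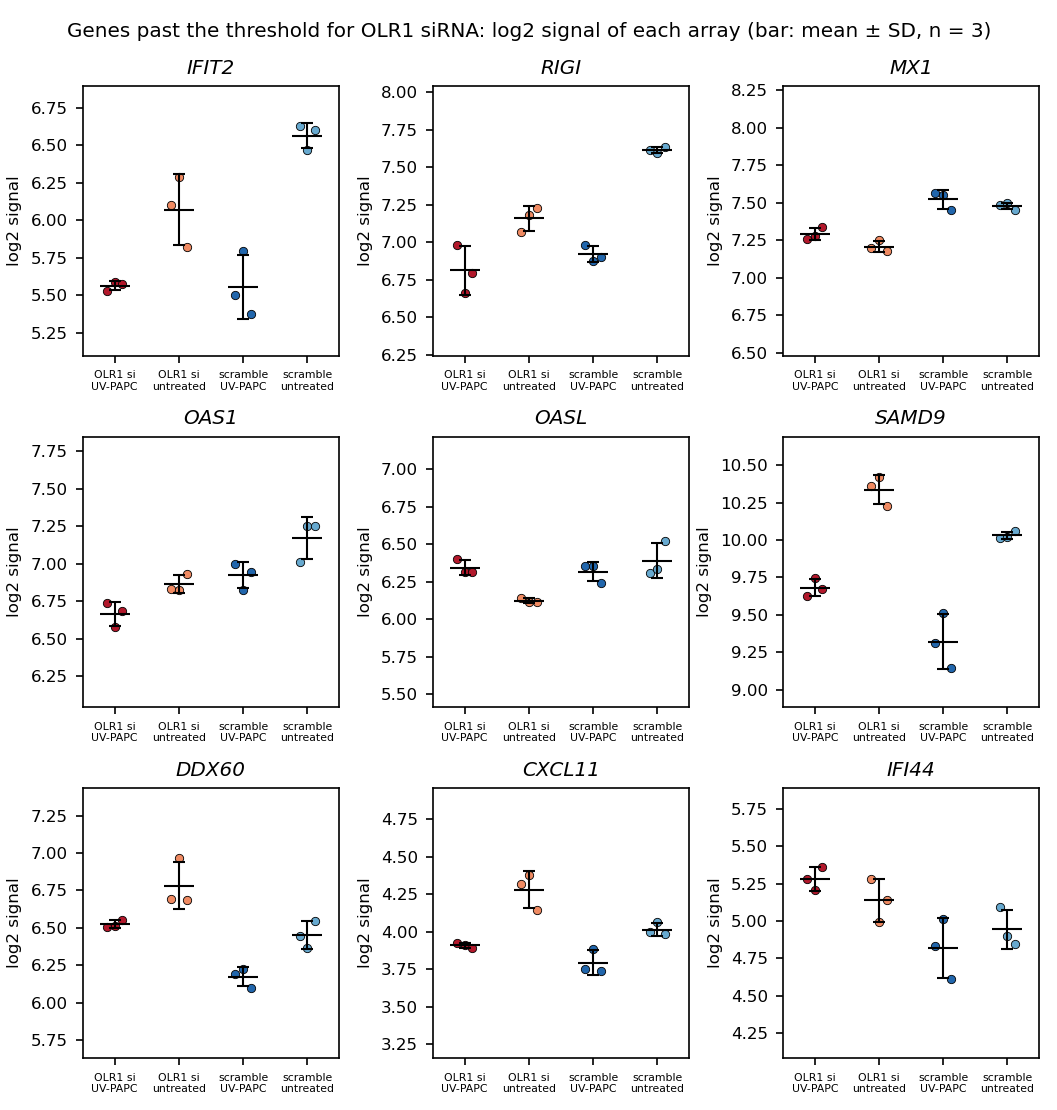
Log2 signal of each array for the 9 interferon-stimulated genes that passed the threshold for OLR1 siRNA in UV-PAPC or untreated cells. Points are arrays and bars the mean ± SD (n = 3) of the 4 groups, with a separate vertical scale for each gene; RIGI in untreated cells lies between 7.07 and 7.23 with OLR1 siRNA and between 7.60 and 7.63 with scramble siRNA.

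SAMD9 and DDX60 were higher with OLR1 siRNA in both treatments, while they were lower with UV-PAPC. SAMD9 had 9.63, 9.75 and 9.67 with OLR1 siRNA against 9.31, 9.51 and 9.14 with scramble siRNA in UV-PAPC cells, and 10.36, 10.42 and 10.23 against 10.01, 10.02 and 10.06 in untreated cells. DDX60 had 6.51, 6.51 and 6.55 against 6.19, 6.22 and 6.10 in UV-PAPC cells, and 6.70, 6.96 and 6.69 against 6.45, 6.37 and 6.55 in untreated cells. No arrays overlapped for either gene. In UV-PAPC cells the differences were 0.36 ± 0.0852 for SAMD9 and 0.35 ± 0.0803 for DDX60 (limma adjusted p = 0.0121 and 0.00986), and in untreated cells 0.30 ± 0.0852 and 0.33 ± 0.0803 (limma adjusted p = 0.0328 and 0.0154). The SAMD9 call was lost without scramble UV-PAPC replicate 3 in UV-PAPC cells (limma adjusted p = 0.0582). In untreated cells it was lost without any of the 3 scramble arrays or OLR1 siRNA replicate 1 or 2 (0.0723 to 0.136), and the DDX60 call without replicate 2 of scramble or of OLR1 siRNA (0.0787 and 0.0872).

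CXCL11 and IFI44 were each higher with OLR1 siRNA in 1 of the treatments. CXCL11 had 4.32, 4.38 and 4.14 with OLR1 siRNA against 4.00, 4.06 and 3.98 with scramble siRNA in untreated cells (0.27 ± 0.0725, limma adjusted p = 0.028), without overlap. That call was lost without any of the 3 scramble arrays or OLR1 siRNA replicate 1 or 2 (limma adjusted p between 0.0524 and 0.135). IFI44, a cytoplasmic protein induced by type I interferon, had 5.28, 5.20 and 5.36 with OLR1 siRNA against 4.83, 5.01 and 4.61 with scramble siRNA in UV-PAPC cells, all apart (0.46 ± 0.102, limma adjusted p = 0.00807). In untreated cells IFI44 overlapped between the siRNAs and differed by 0.19 (limma adjusted p = 0.282).

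These counts rested on few arrays. In UV-PAPC cells the number of falls with OLR1 siRNA was 0 without scramble UV-PAPC replicate 1 or OLR1 siRNA UV-PAPC replicate 1 or 2, and 1 without scramble untreated replicate 2, scramble UV-PAPC replicate 2 or 3, any of the 3 untreated OLR1 siRNA arrays or OLR1 siRNA UV-PAPC replicate 3. In untreated cells it was 3 without scramble untreated replicate 3 or OLR1 siRNA untreated replicate 1 or 2. The number of rises in untreated cells was 0 without replicate 2 of scramble or OLR1 siRNA and 1 without scramble replicate 1 or 3 or OLR1 siRNA replicate 1.

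Around the 42 genes, other parts of the interferon pathway were read from lists that hold none of them. Of 16 measured interferon ligands, IFNB1, IFNK and the lambda interferons among them, 0 passed with UV-PAPC under either siRNA by limma. At an unadjusted p under 0.05 there were 2 ligands with OLR1 siRNA and 1 with scramble siRNA, against 3414 and 3592 of all 18417 genes. Among the ligands only IFNL3, at 7.06 to 7.39, lay above the median over genes of 6.35. IFNB1 had signals of 2.99 to 3.48 and IFNA2 of 2.93 to 3.45, near the leukocyte marker PTPRC at 3.12 to 3.47. Whether such dim probe sets were above background is not recorded, so their lack of a call cannot show that these ligands were unchanged. Of 11 receptors and proximal signalling genes, IFNGR2, the signalling chain of the interferon gamma receptor, was lower under both siRNAs (-0.33 and -0.25, limma adjusted p = 0.0101 and 0.0487). STAT3 had a log2 difference of -0.22 with OLR1 siRNA (limma adjusted p = 0.0586) and -0.25 with scramble siRNA (limma adjusted p = 0.033). Among all genes 3.25% fell and 3.46% rose with UV-PAPC in OLR1 siRNA cells, and 4.64% fell and 2.67% rose in scramble cells. The IFNGR2 call with OLR1 siRNA was lost without untreated OLR1 siRNA replicate 1 (limma adjusted p = 0.0644). With scramble siRNA the calls of both genes were lost without any of the 3 untreated scramble arrays or scramble UV-PAPC replicate 2 or 3, and that of IFNGR2 also without scramble UV-PAPC replicate 1, OLR1 siRNA untreated replicate 3 or OLR1 siRNA UV-PAPC replicate 1 or 3 (limma adjusted p between 0.0563 and 0.15).

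Of 18 measured sensing adaptors and kinases, 3 rose, 2 fell and 13 did not pass with UV-PAPC in OLR1 siRNA cells, where 3.46% of all genes rose and 3.25% fell. In scramble cells 3 rose, 3 fell and 12 did not pass, where 2.67% of all genes rose and 4.64% fell. CGAS, the cytosolic DNA sensor, had 8.94, 8.58 and 8.86 with UV-PAPC against 8.37, 8.33 and 8.32 untreated in OLR1 siRNA cells, and 8.78, 8.83 and 8.58 against 8.19, 8.29 and 8.29 in scramble cells. IRF8, a transcription factor best known from myeloid cells, rose by 0.52 with OLR1 siRNA and 0.63 with scramble siRNA, and CGAS by 0.46 and 0.47 (limma adjusted p = 0.00241, 0.000497, 0.00428 and 0.00334). AZI2, an adaptor of the kinase TBK1, rose by 0.36 and 0.40 (limma adjusted p = 0.00375 and 0.00166). TLR3, the endosomal receptor for double-stranded RNA, fell by 0.37 and 0.50 (limma adjusted p = 0.0167 and 0.00183), and IRF2, an antagonist of IRF1, had -0.34 under both (limma adjusted p = 0.022 and 0.0224). IKBKE, a kinase that activates IRF3, fell by 0.38 with scramble siRNA (limma adjusted p = 0.00381) and had -0.145 with OLR1 siRNA (limma adjusted p = 0.321). The IRF8, CGAS and AZI2 calls held in each of 21 alternatives under both siRNAs. With OLR1 siRNA the TLR3 and IRF2 calls were lost without untreated replicate 1 or 2 or UV-PAPC replicate 2 of that siRNA (limma adjusted p between 0.0617 and 0.103). With scramble siRNA the IRF2 call was lost without untreated scramble replicate 1 or 2 or UV-PAPC scramble replicate 3 (limma adjusted p = 0.0862, 0.0704 and 0.106).

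Of 52 measured genes of a list of further interferon-induced genes, 8 fell and 2 rose (CASP4 and ZC3HAV1) with UV-PAPC in OLR1 siRNA cells, where 3.25% of all genes fell and 3.46% rose. In scramble cells 9 fell and 0 rose, where 4.64% of all genes fell and 2.67% rose. Their median log2 differences were -0.0595 and -0.108. With OLR1 siRNA the falls were 3 without untreated replicate 2 or UV-PAPC replicate 2 of that siRNA and 5 without untreated replicate 1, and the rises were 1 without any of its 3 untreated arrays or UV-PAPC replicate 1 or 3. With scramble siRNA they were 3 without UV-PAPC replicate 3, 4 without untreated replicate 1 or 3, 5 without untreated replicate 2 and 6 without UV-PAPC replicate 1. DTX3L, the partner of PARP9, had 8.80, 8.86 and 8.90 with UV-PAPC against 9.24, 9.36 and 9.21 untreated in OLR1 siRNA cells, and 8.56, 8.68 and 8.50 against 9.14, 9.005 and 9.11 in scramble cells. It was apart under both siRNAs, with differences of -0.41 and -0.50 (limma adjusted p = 0.00171 and 0.000321). TRIM38, a ubiquitin ligase that tempers innate signalling, fell by 0.41 and 0.40. RTP4, a chaperone of receptors, had -0.225 with OLR1 siRNA (limma adjusted p = 0.142) and fell by 0.51 with scramble siRNA. EPSTI1 fell by 0.46 with OLR1 siRNA and had -0.17 with scramble siRNA (limma adjusted p = 0.276), and ZC3HAV1 (ZAP), which binds CG-rich viral RNA, rose by 0.41 with OLR1 siRNA and had 0.28 with scramble siRNA (limma adjusted p = 0.0542). The calls named for DTX3L, TRIM38, RTP4, EPSTI1 and ZC3HAV1 held in every alternative run.

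**Figure D5:**
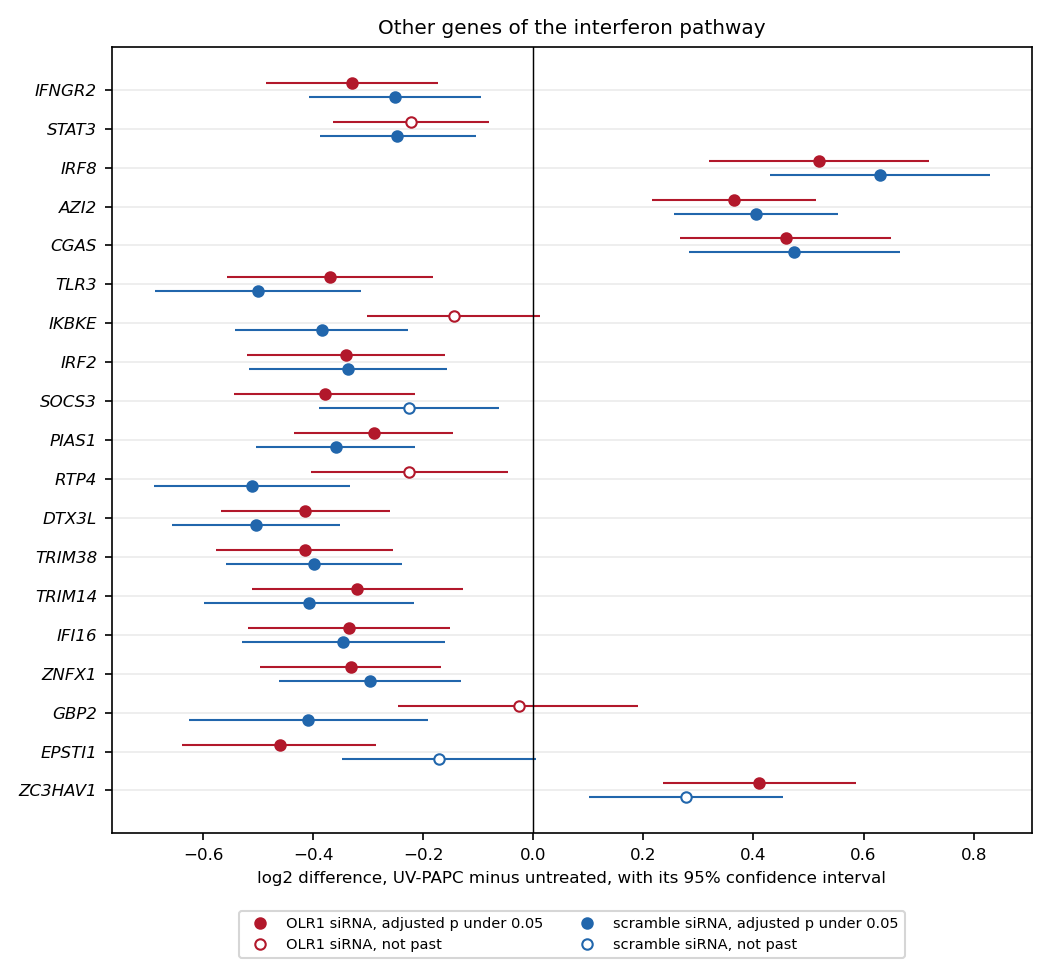
Log2 difference of UV-PAPC minus untreated cells, with its 95% confidence interval from limma (3 arrays a group), for 19 other genes of the interferon pathway, in cells with OLR1 siRNA (red) and scramble siRNA (blue). Filled points have an adjusted p under 0.05; IRF8, AZI2 and CGAS lie above 0 under both siRNAs and TLR3, IRF2 and DTX3L below 0 under both.

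Of 14 measured negative regulators of the pathway, 2 fell with UV-PAPC in OLR1 siRNA cells (PIAS1 at -0.29 and SOCS3 at -0.38) and 1 in scramble cells (PIAS1 at -0.36), and 0 rose in either. Among all genes 3.25% fell and 3.46% rose with UV-PAPC in OLR1 siRNA cells, and 4.64% fell and 2.67% rose in scramble cells. The PIAS1 call with OLR1 siRNA was lost without untreated or UV-PAPC replicate 2 of that siRNA (limma adjusted p = 0.0777 and 0.0578). With OLR1 siRNA against scramble siRNA, 4 of the 14 rose in UV-PAPC cells (PIAS1, PTPN11, PTPN2 and TRIM21) and 4 in untreated cells (PIAS1, PTPN11, PTPN2 and SOCS3), where 7.94% and 5.29% of all genes rose, and 0 fell in either. In UV-PAPC cells the count was 2 without scramble UV-PAPC replicate 3 or OLR1 siRNA UV-PAPC replicate 1 or 3. Other lists also had calls with OLR1 siRNA. Of 11 receptors and proximal signalling genes, 2 rose in UV-PAPC cells (IFNGR1 and IFNLR1) and 0 passed in untreated cells. Of 18 sensing adaptors and kinases, 2 rose (TBK1 and TANK) and 1 fell (IRF5) in UV-PAPC cells. In untreated cells 1 rose (TBK1) and 2 fell (IKBKE and IRF5). Of all genes 7.94% rose and 4.56% fell in UV-PAPC cells, and 5.29% rose and 4.42% fell in untreated cells. The counts of 1 among the 18 were thus near the share of all genes. In UV-PAPC cells the IFNGR1, IFNLR1 and IRF5 calls were lost in 3 of 21, 6 of 21 and 10 of 20 alternatives. Those of TANK, TRIM21 and PTPN2 were lost there in 1, 3 and 6 of 21. In untreated cells the TBK1 and PTPN2 calls were each lost in 2 of 21. Without scramble untreated replicate 3 or OLR1 siRNA untreated replicate 2, 0 of the 18 sensing adaptors and kinases rose in untreated cells. PIAS1, a SUMO ligase that inhibits cytokine signalling, had 10.26, 10.20 and 10.27 with OLR1 siRNA against 9.87, 9.79 and 9.69 with scramble siRNA in UV-PAPC cells, and 10.49, 10.60 and 10.50 against 10.20, 10.11 and 10.11 in untreated cells. Its arrays were apart in both, and it rose by 0.46 and 0.39 (limma adjusted p = 0.000504 and 0.00145). PTPN11, the phosphatase SHP-2, rose by 0.33 and 0.37 (limma adjusted p = 0.00532 and 0.00244). SOCS3, a feedback inhibitor of JAK kinases, rose by 0.36 in untreated cells (limma adjusted p = 0.00722) and had 0.205 in UV-PAPC cells (limma adjusted p = 0.0943).

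Among the 52 further induced genes, 10 rose and 3 fell with OLR1 siRNA in UV-PAPC cells, and 3 rose and 2 fell in untreated cells. The 10 rises were B2M, CASP4, DTX3L, GBP3, PNPT1, PSMB10, PSME1, PSME2, RTP4 and ZNFX1. Of these, only CASP4 and PSME2 kept that call in every alternative. Of all genes 7.94% rose and 4.56% fell in UV-PAPC cells and 5.29% rose and 4.42% fell in untreated cells, so the falls in UV-PAPC cells and both counts in untreated cells were near the share of all genes. In UV-PAPC cells the rises were 5 without scramble UV-PAPC replicate 3 or OLR1 siRNA UV-PAPC replicate 1 and 6 without scramble UV-PAPC replicate 1. The falls there were 0 without scramble UV-PAPC replicate 1 or 2, 1 without OLR1 siRNA UV-PAPC replicate 2 or 3 and 2 without scramble UV-PAPC replicate 3 or OLR1 siRNA UV-PAPC replicate 1. CASP4 had 9.04, 8.86 and 8.93 with OLR1 siRNA against 8.60, 8.695 and 8.62 with scramble siRNA in UV-PAPC cells. PSME2 had 8.78, 8.62 and 8.77 against 8.35, 8.38 and 8.40 in those cells. CD274, the checkpoint ligand PD-L1, had 7.13, 6.94 and 6.93 with OLR1 siRNA against 7.51, 7.48 and 7.20 with scramble siRNA in UV-PAPC cells, and 6.87, 7.05 and 6.96 against 7.83, 7.59 and 7.92 in untreated cells. It was lower in all OLR1 siRNA arrays, with differences of -0.395 in UV-PAPC cells and -0.82 in untreated cells (limma adjusted p = 0.0158 and 6.2e-05). The call in UV-PAPC cells was lost without scramble replicate 1 or 2 or OLR1 siRNA replicate 3 of that treatment (limma adjusted p = 0.0679, 0.0547 and 0.0616). GBP2, a guanylate-binding GTPase, had 5.42, 5.34 and 5.23 with OLR1 siRNA against 5.94, 5.91 and 5.93 with scramble siRNA in untreated cells, where it fell by 0.60 (limma adjusted p = 0.00131). The difference of GBP2 in UV-PAPC cells was -0.22 (limma adjusted p = 0.178).

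The probe set that GBP1 shares with GBP1P1 and GBP3 could not be given to 1 gene. Its signals were 8.87, 8.73 and 8.83 in OLR1 siRNA cells with UV-PAPC, 8.93, 8.99 and 8.84 in OLR1 siRNA cells untreated, 9.03, 9.07 and 8.93 in scramble cells with UV-PAPC, and 9.35, 9.23 and 9.19 in scramble cells untreated. The untreated scramble arrays were the highest. In a limma fit of all 33297 entries, OLR1 siRNA differed by -0.335 in untreated cells (adjusted p = 0.0185) and by -0.198 in UV-PAPC cells (adjusted p = 0.117). In that limma fit UV-PAPC differed by -0.109 with OLR1 siRNA and -0.246 with scramble siRNA (adjusted p = 0.535 and 0.0861). GBP3 was also read by a probe set of its own. That set had 8.81, 8.64 and 8.575 with UV-PAPC and 8.50, 8.50 and 8.39 untreated in OLR1 siRNA cells. In scramble cells it had 8.46, 8.48 and 8.23 with UV-PAPC and 8.33, 8.19 and 8.17 untreated. GBP3 rose with OLR1 siRNA in UV-PAPC cells, where the shared set differed by -0.198. That call was lost in 8 of 21 alternatives. Which gene the shared signal followed was not tested. A second probe set that USP18 shares with USP41P had 5.33, 5.09 and 5.52 with UV-PAPC against 5.54, 5.82 and 5.53 untreated in OLR1 siRNA cells, and 5.31, 5.13 and 5.43 against 5.66, 5.63 and 5.46 in scramble cells, lower with UV-PAPC in every array of each siRNA. Neither difference passed in the same limma fit (-0.315 and -0.296, adjusted p = 0.237 and 0.262).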

How the data were processed

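Total RNA of 12 SZ95 sebocyte samples was hybridised to Affymetrix gene arrays, from 100 ng each per the labels. The deposited values are log2 signals per probe set. The authors obtained them with RMA, and the submitters' processing notes name Affymetrix Expression Console 1.3.1.187. They were used as deposited. RMA compresses large fold changes and its settings are not stated. Precision is limited by the number of arrays.

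Of 33297 table entries 19460 carried 1 gene symbol. A gene with several probe sets was represented by the one of highest mean, which gave 18417 genes. Limma 3.58.1 (R 4.3.3, default eBayes, 8 residual and 7.66 prior degrees of freedom) was fitted with 4 group means and all arrays. P-values were two-sided and adjusted by Benjamini-Hochberg over all genes within each of 5 comparisons, at a threshold of 0.05. For the shared probe sets the fit and the adjustment were over all 33297 table entries. No p was adjusted over a gene list alone. The fit was tested on simulated data. Members past the threshold in any comparison are named with their arrays, and others where they complete a family.

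The members, the pathway and marker lists and the promoters shown were chosen with earlier results of these data known. Related paralogs may share some probe signal, which could make single IFIT, OAS, MX and SAMD9 members less certain and was not tested. Samples were grouped by the labels. Same-numbered replicates did not pair the arrays: correlations of their deviations from group means ran from -0.22 to 0.26. The fit was repeated with a robust trended prior, with weighted arrays, on genes above the median signal, on averaged probe sets, after median centring, after repeated quantile normalization, with the replicate number as a block, on the arrays of a comparison alone and without each array. Leaving out 1 array per group was added after seeing the data. Promoters came from RefSeq tables for GRCh38.p14. Figures were drawn with matplotlib 3.10.9.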

Additional observations from a re-analysis of the deposited data

How the results depend on the processing

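Under 21 alternatives, 20 for members at or below the median signal, no call of a member changed direction. Some of these runs could not have changed it. Averaging probe sets left members as they were, since each had 1 probe set. Leaving out an array outside a comparison left its log2 differences unchanged and could alter only the p-values. Of the calls with UV-PAPC, 6 of 11 with OLR1 siRNA (IFIT3, SAMD9, SAMD9L, IRF1, PARP9 and CXCL11) and 8 of 11 with scramble siRNA (IFIT1, IFIT2, IFIT3, RIGI, SAMD9, SAMD9L, IRF1 and PARP9) were kept in every alternative that tested them. Of the calls for OLR1 siRNA, 0 of 5 in UV-PAPC cells and 2 of 8 in untreated cells (IFIT2 and RIGI) were kept in this way. Rescaling moved the median of all genes by at most 0.032.

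With single arrays left out, the falls with UV-PAPC numbered 7 to 10 with OLR1 siRNA and 9 to 11 with scramble siRNA, and the rises 0 to 1 and 0 to 0. For OLR1 siRNA the falls numbered 0 to 2 in UV-PAPC cells and 3 to 6 in untreated cells, and the rises 2 to 4 and 0 to 3. Without 1 array per group, chosen after seeing the data as the highest on the first component of deviations, OLR1 siRNA gave 0 falls and 0 rises in UV-PAPC cells and 2 falls in untreated cells. The falls in UV-PAPC cells were 1 with centred arrays, 1 with repeated quantile normalization, 1 with the replicate block and 0 with the arrays of the comparison alone, and the rises 5 with array weights. The cause was not tested.

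The replicate block also ended the calls of DDX60 with scramble siRNA (limma adjusted p = 0.0622), OAS3 with OLR1 siRNA (0.0501) and OAS1 in UV-PAPC cells (0.053), and no other call of a member. Same-numbered arrays share only a number: 6 of 18 same-numbered pairs and 8 of 36 others had a correlation of deviations over 0.1. Without 1 array per group, OAS3 lost its call with scramble siRNA (limma adjusted p = 0.126). For dim members such as CXCL11, the table gives no measure of signal over background.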
